A study of Mus musculus with 10 samples.

Results

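The Kruppel-like factors measured here are 9 genes, Klf2, Klf3, Klf4, Klf5, Klf6, Klf7, Klf9, Klf10 and Klf13, taken by name from the 17495 genes tested in epithelial cells sorted from mouse pancreatic ductal adenocarcinoma (PDAC). They lie on 9 different chromosomes, Klf2 on 8, Klf3 on 5, Klf4 on 4, Klf5 on 14, Klf6 on 13, Klf7 on 1, Klf9 on 19, Klf10 on 15 and Klf13 on 7. All 9 passed the filter on low counts, which asks for about 10 counts or more in at least as many libraries as a group holds. The tumours grew in the pancreas of mice from T6-LOH organoids of the KPC model of this carcinoma, transplanted together with pancreatic stellate cells (PSCs), the fibroblast precursors of the pancreas. In 5 libraries the PSCs were the Egfr knockout clone B4 of the line PSC4 (Egfr KO PSC), and in 5 the PSCs were a Rosa control of that line, taken as the Egfr WT arm named in the title (Egfr WT PSC). The labels place the knockout in the stellate cells alone, so the Egfr level of the sorted carcinoma cells checks nothing. The knockout label names a single clone, so loss of Egfr and traits of the clone cannot be told apart. The title names NSG hosts, an immunodeficient strain, while each strain label reads C57BL/6J without saying whether it means host or graft, and no source used here gives host age. Whether every library stands for its own mouse is not stated, so the spread that p-values rest on may be technical.

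Kruppel-like factors are transcription factors that bind GC-rich and CACCC sequences through zinc fingers at their C-terminal end. Their N-terminal parts differ and recruit co-activators or co-repressors, so that members sharing DNA sites can raise or lower the same promoters. In gut and pancreatic epithelium, Klf5 is known for proliferating cells and Klf4 for differentiating ones, while Klf2 is best known from endothelium and lymphocytes. Several family members, Klf2, Klf4, Klf6 and Klf10 among them, are induced within minutes by growth factors, TGF-beta or stress.

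Some family members are known to bind the promoters of their own genes, so the promoter windows of 3 members are shown first. Klf6 was the most abundant member, and Klf2 and Klf4 were the pair with the highest positive correlation over the libraries. The windows come from RefSeq on GRCm38.p6, from 250 bases before to 50 bases after the gene's start. Capitals mark GGGCGG on either strand, the GC box that SP and KLF proteins bind. The Klf2 window is chr8:72318812-72319111 on the plus strand, the Klf4 window is chr4:55532426-55532725 on the minus strand, and the Klf6 window is chr13:5861239-5861538 on the plus strand.
Klf2: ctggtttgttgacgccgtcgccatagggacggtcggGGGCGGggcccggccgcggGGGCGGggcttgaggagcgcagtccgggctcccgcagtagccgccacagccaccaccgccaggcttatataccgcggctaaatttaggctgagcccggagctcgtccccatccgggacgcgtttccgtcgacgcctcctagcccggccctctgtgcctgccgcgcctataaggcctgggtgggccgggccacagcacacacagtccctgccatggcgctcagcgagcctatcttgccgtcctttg
Klf4: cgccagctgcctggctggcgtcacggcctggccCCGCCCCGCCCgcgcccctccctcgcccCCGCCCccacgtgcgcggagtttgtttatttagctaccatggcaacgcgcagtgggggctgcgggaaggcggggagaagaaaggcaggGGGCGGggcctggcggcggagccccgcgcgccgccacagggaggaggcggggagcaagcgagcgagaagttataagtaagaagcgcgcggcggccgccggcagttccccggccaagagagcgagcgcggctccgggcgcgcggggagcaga
Klf6: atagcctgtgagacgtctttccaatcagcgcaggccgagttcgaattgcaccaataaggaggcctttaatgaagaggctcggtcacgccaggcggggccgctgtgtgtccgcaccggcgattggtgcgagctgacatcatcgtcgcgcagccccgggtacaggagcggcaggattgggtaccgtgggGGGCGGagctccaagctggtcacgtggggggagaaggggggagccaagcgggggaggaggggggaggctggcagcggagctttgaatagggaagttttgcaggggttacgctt

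The window of Klf4 held 4 GC boxes, of which the first pair shared 1 base, that of Klf2 held 2 and that of Klf6 held 1. RefSeq windows were at hand for 7 of the 9 genes, and 6 of the 7 held GGGCGG on either strand, against 35.66% of all 32851 windows of the same length. CACCC on either strand was present in 5 of the 7, against 57.52% of all windows. The MEF2 motif is the site through which the kinase ERK5 is known to switch on Klf2 in endothelium. It matched in 1 of the 7 windows, that of Klf2, beginning 118 bases before the start, and in 0.56% of all windows. Other motifs were searched too and are not described here. GC content was 69.33% in the Klf2 window, 74.33% in that of Klf4 and 63.0% in that of Klf6, against a median of 52.67% over all windows. Over the 7 windows it lay between 58.33% and 76.67%. The count with GGGCGG, a motif of G and C alone, was not compared with windows of like GC content. These are matches of letters in a window. They do not show binding.

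Libraries held between 39534055 and 53816086 estimated counts in genes, and the mitochondrial share lay between 1.85% and 4.51%. Epithelial markers were abundant in every library, with Epcam between 117 and 322 CPM (counts per gene scaled to the library total, normalised by TMM, the trimmed mean of M values) and Krt19 between 3256 and 6226 CPM. Markers of other cell types were detected too, and the fibroblast collagen gene Col3a1 lay between 153 and 1071 CPM. Col3a1 had the highest mean of its list, 477 ± 350 CPM with Egfr KO PSCs and 412 ± 195 CPM with Egfr WT PSCs. The 10 epithelial markers summed to 14968 to 26611 CPM with Egfr KO PSCs and to 17537 to 18953 CPM with Egfr WT PSCs. The summed CPM of 10 fibroblast markers, Col3a1 included, lay between 344 and 1238 with Egfr KO PSCs and between 368 and 924 with Egfr WT PSCs. The median log2 fold change of this list was -0.48. Of its 10 markers, 3 were lower and 0 higher at an unadjusted edgeR p under 0.05 (4.6% and 3.55% of all genes in these directions). Over 10 endothelial markers the sums were 14.4 to 63.7 CPM with Egfr KO PSCs and 29.9 to 48.6 CPM with Egfr WT PSCs. Over 10 macrophage markers they were 53.7 to 86.3 CPM with Egfr KO PSCs and 39.3 to 96.4 CPM with Egfr WT PSCs. These sums were mostly Mrc1, Cd68 and Csf1r, the 3 that were higher with Egfr KO PSCs, while the median log2 fold change of the list was -1.19 and 6 of its 10 markers were lower at an unadjusted edgeR p under 0.05 (4.6% of all genes in that direction). Over 6 erythroid markers they were 0.905 to 3.55 CPM with Egfr KO PSCs and 6.50 to 42.4 CPM with Egfr WT PSCs, and these ranges did not overlap. The lymphocyte markers summed to 0.327 to 0.810 CPM with Egfr KO PSCs and to 0.379 to 0.698 CPM with Egfr WT PSCs, with Cd3g at 0 counts. With Egfr KO PSCs 7 of 10 fibroblast, 10 of 10 endothelial, 7 of 10 macrophage and 4 of 4 tested erythroid markers were lower, against 49.9% of all genes, and edgeR called 0 of them, while DESeq2 called the collagen gene Col1a1 and 3 globin genes. Neutrophil markers summed to 4.58 to 11.2 CPM with Egfr KO PSCs and to 3.21 to 10.3 CPM with Egfr WT PSCs. Of the 6 tested, 3 were higher and 3 lower with Egfr KO PSCs. DESeq2 called 1 of them, Ly6g, higher at 1.97 ± 1.05 CPM with Egfr KO PSCs against 0.68 ± 0.16 CPM with Egfr WT PSCs. Acinar markers summed to 82.3 to 504 CPM with Egfr KO PSCs and to 109 to 443 CPM with Egfr WT PSCs. No lymphocyte marker passed the filter on low counts. The part of these cells in the results below was not tested. In bulk libraries, fewer cells of a type and less RNA per cell cannot be told apart.

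None of the 9 Kruppel-like factor genes passed the test between Egfr KO PSC and Egfr WT PSC libraries. With edgeR's quasi-likelihood test and Benjamini-Hochberg adjustment over all genes, 0 of 9 were called, where 0% of all genes were called. At an unadjusted p under 0.05 the count was 0 of 9, against 8.15% of all genes, and 0 of 9 had groups that did not overlap, against 1.52% of all genes (0.777% higher and 0.743% lower with Egfr KO PSCs). DESeq2 called 0 of 9 (0.742% of all genes) and limma voom 0 of 9 (0.0171% of all genes). The log2 fold changes, Egfr KO PSC over Egfr WT PSC, were above 0 in 5 members and below 0 in 4, with a median of 0.0099 and the largest in size at -0.21. The median over all genes was 0.00041. Adjusted p-values of the members lay between 0.707 and 0.994 in edgeR. A p that misses the threshold does not show equal levels, so the 95% confidence interval of each fold change is given beside the values.

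**Figure D1:**
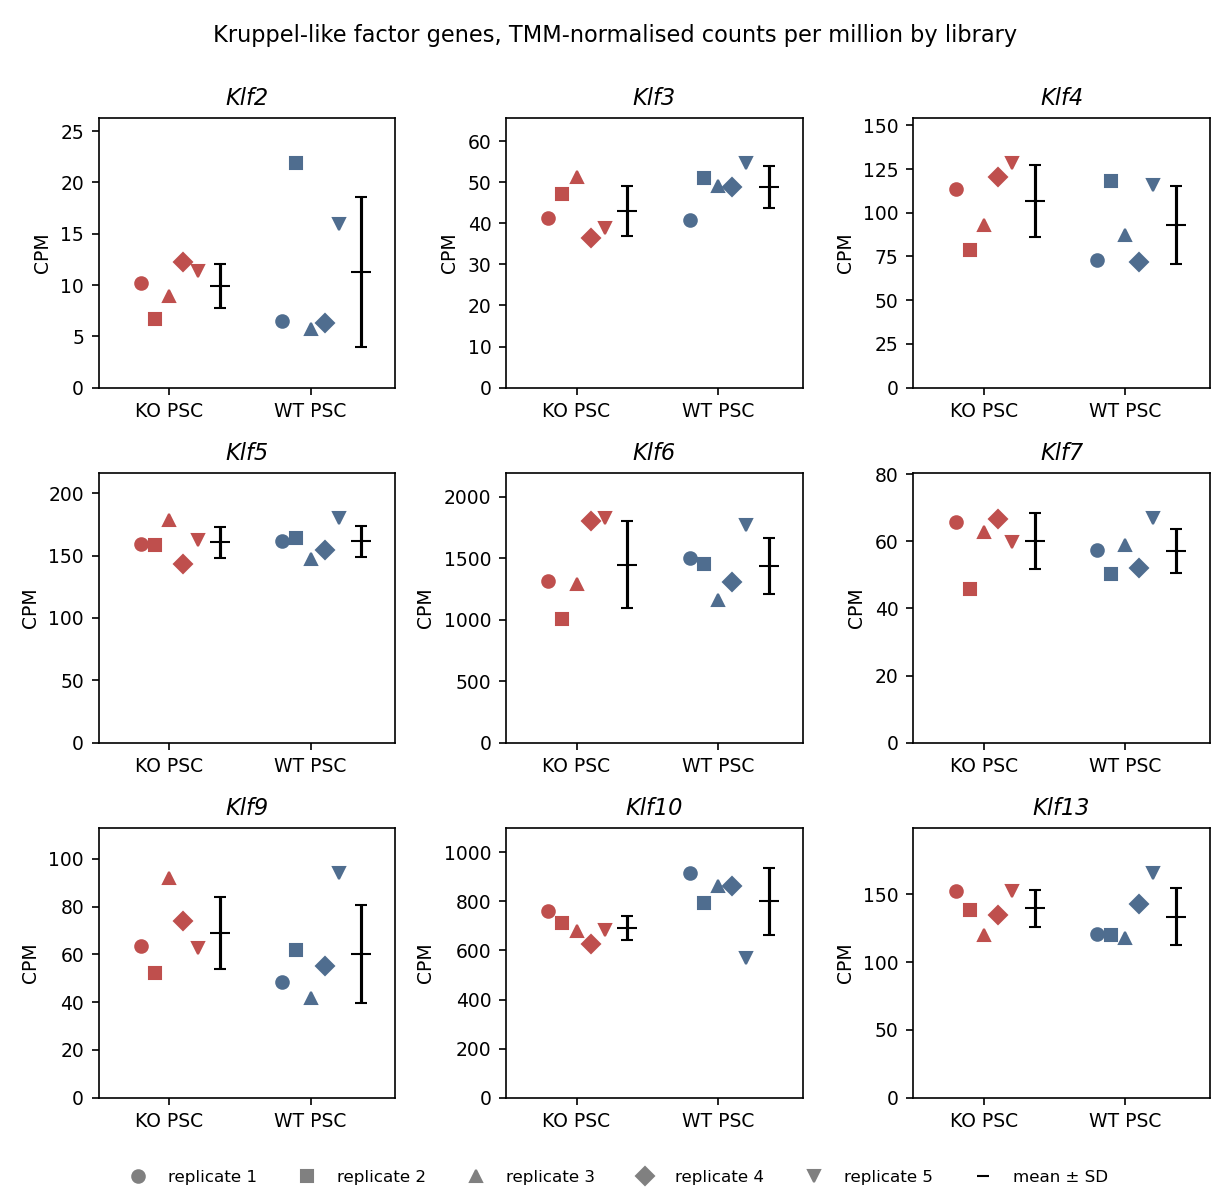
TMM-normalised CPM (y axis, from 0) of 9 Kruppel-like factor genes in 5 Egfr KO PSC libraries (left, red) and 5 Egfr WT PSC libraries (right, blue), with the marker shape giving the replicate and the black bar the mean ± SD. Each gene's groups overlap, and Klf2 spans 5.71 to 21.9 CPM within the Egfr WT PSC libraries alone.

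Levels can be compared between genes in TPM, a share of all transcripts that corrects for length. Klf6, an early response gene and reported growth suppressor, was highest at 1093 ± 183 TPM (SD, n = 10), above 99.4% of the genes tested. Klf10, which TGF-beta induces and which represses Smad7, followed at 363 ± 63.4 TPM, and Klf5 at 76.7 ± 5.68 TPM. Klf4 had 55.5 ± 10.2 TPM. Each of these 4 genes lay above the next in 10 of 10 libraries. Klf13 (34.1 ± 3.81 TPM) and Klf7 (34.1 ± 3.82 TPM) did not differ beyond their spread, with Klf13 above Klf7 in 4 of 10 libraries. Klf9 (22.4 ± 5.96 TPM) and Klf3 (22.0 ± 2.38 TPM) likewise did not, with Klf9 higher in 5 of 10. Klf2 was lowest at 12.4 ± 5.59 TPM, still above 60.4% of the genes tested, and lay under Klf3 in 9 of 10 libraries.

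**Figure D2:**
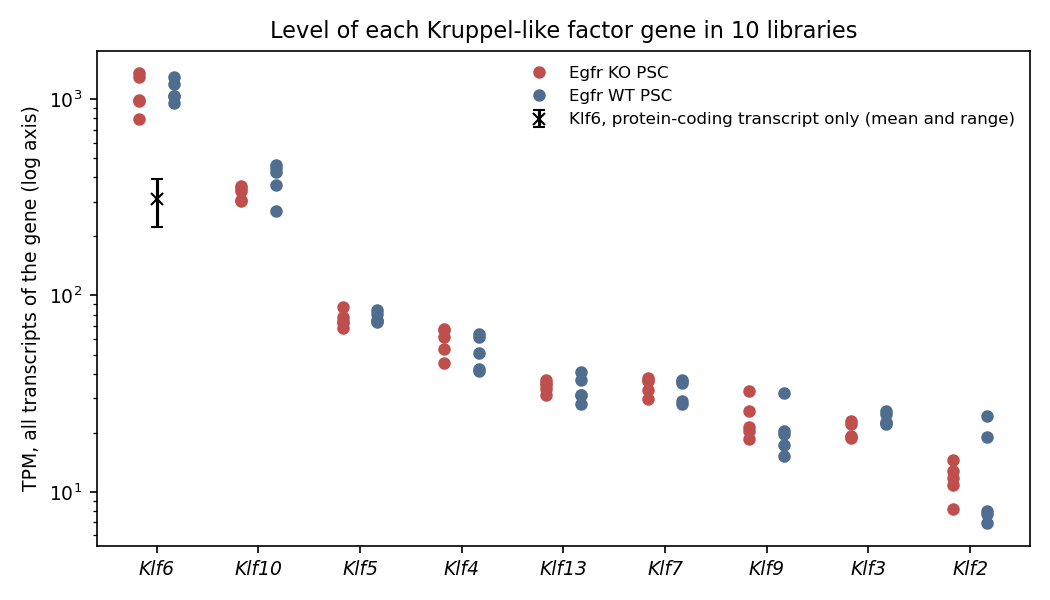
Summed TPM of each gene's transcripts (y axis, log scale) in 10 libraries, with Egfr KO PSC in red at the left of each gene and Egfr WT PSC in blue at its right, ordered by mean. The cross shows the mean and range of the Klf6 protein-coding transcript alone, 311 TPM (224 to 391), which overlaps the range of Klf10.

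The lead of Klf6 rested on transcripts that are not annotated as protein-coding. Its protein-coding transcript Klf6-201 made up, of the gene's TPM, 28.6 ± 0.443% with Egfr KO PSCs and 28.3 ± 0.760% with Egfr WT PSCs (SD, n = 5 each). The shorter Klf6-203, which GENCODE M21 marks for nonsense-mediated decay, made up 57.5 ± 2.59% with Egfr KO PSCs and 58.7 ± 2.31% with Egfr WT PSCs. The retained-intron form Klf6-202 made up 13.9 ± 2.95% with Egfr KO PSCs and 13.0 ± 2.09% with Egfr WT PSCs. In estimated counts, which favour long transcripts, Klf6-201 held 62.5% to 65.4% of the gene. Counting it alone, Klf6 had 311 ± 55.0 TPM and lay below Klf10 in 7 of 10 libraries and above it in 3. Shared exons make the division of reads between these forms an estimate.

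Klf7 and Klf3 also spread over several transcripts. Klf7-201 held 52.5 ± 1.58% with Egfr KO PSCs and 54.7 ± 2.03% with Egfr WT PSCs of the gene's TPM. Klf7-202, the longest, held 20.7 ± 3.33% with Egfr KO PSCs and 21.02 ± 1.86% with Egfr WT PSCs. In estimated counts Klf7-202 held more, 1487 to 2209 per library, against 642 to 1005 for Klf7-201. For Klf3, a repressor that acts through CtBP, the full-length Klf3-201 held 39.2 ± 6.21% with Egfr KO PSCs and 40.5 ± 7.48% with Egfr WT PSCs. The retained-intron form Klf3-203 held 13.5 ± 2.38% of Klf3 with Egfr KO PSCs and 13.0 ± 2.43% with Egfr WT PSCs. Klf4, Klf5, Klf9, Klf10 and Klf13 were each dominated by 1 protein-coding transcript, at 95.3% or more of the gene's TPM in every library, and Klf2 has 1 transcript. For none of the transcripts named here did the group means lie farther apart than the SDs, except for Klf7-201, and no test of shares was made.

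**Figure D3:**
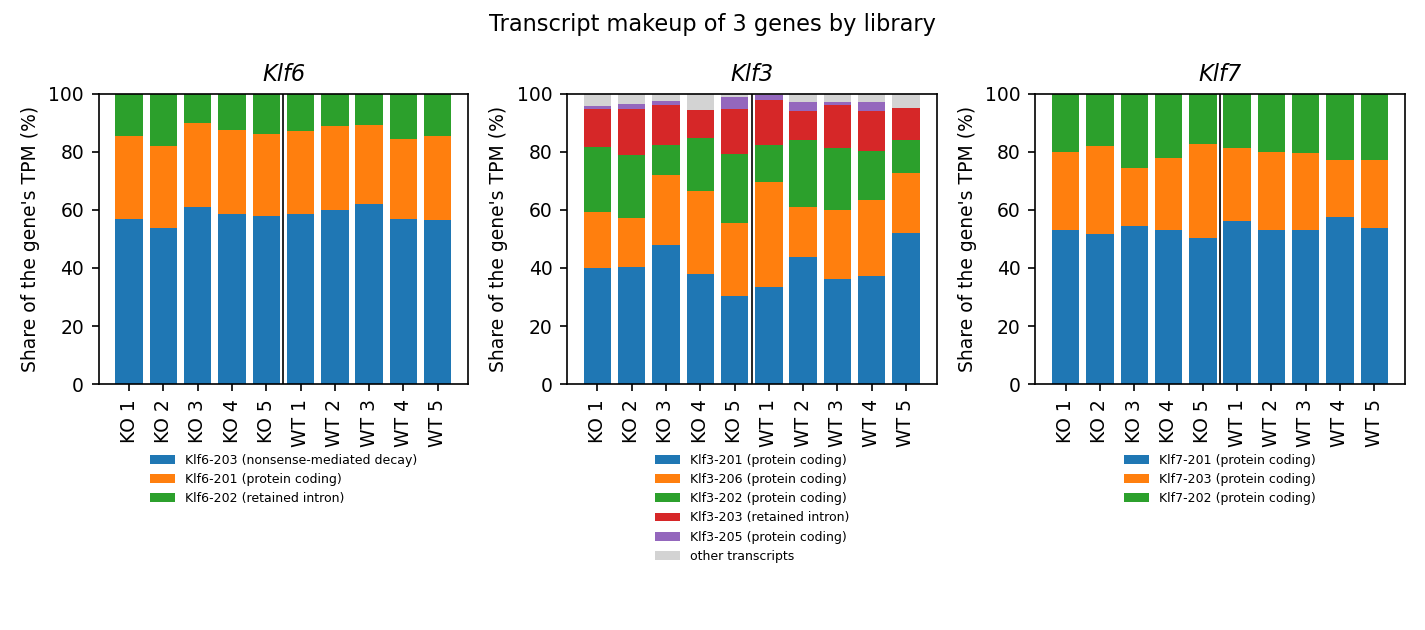
Share of each gene's TPM (y axis, percent) held by its transcripts in the 10 libraries (x axis, Egfr KO PSC left of the line, Egfr WT PSC right), for Klf6, Klf3 and Klf7. Klf6-203 takes between 53.7% and 61.9% of Klf6 over the 10 libraries.

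Klf10, whose product curbs proliferation downstream of TGF-beta, had the lowest p of the members. It was at 763, 712, 677, 626 and 682 CPM with Egfr KO PSCs and at 918, 795, 862, 861 and 569 CPM with Egfr WT PSCs. Of the Egfr WT PSC libraries, 4 lay above all 5 Egfr KO PSC libraries, and replicate 5 lay below them all. The mean was 692 ± 50.02 CPM with Egfr KO PSCs and 801 ± 137 CPM with Egfr WT PSCs (SD, n = 5 each). The log2 fold change was -0.21 (SE 0.13, 95% confidence interval -0.49 to 0.07, edgeR adjusted p = 0.707). It was -0.31 without Egfr WT PSC replicate 5 (edgeR adjusted p = 0.29) and between -0.26 and -0.16 under every other alternative.

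Klf11, the closest relative of Klf10 and likewise a TGF-beta-induced repressor that binds Sin3a, was not among the 9 genes but was measured. It was at 9.92, 9.44, 12.5, 7.69 and 6.31 CPM with Egfr KO PSCs and at 16.4, 12.3, 12.7, 14.1 and 17.2 CPM with Egfr WT PSCs. The groups overlapped through Egfr KO PSC replicate 3, which lay above Egfr WT PSC replicate 2. Klf11 had an edgeR adjusted p of 0.44 (log2 fold change -0.67, SE 0.19) and a DESeq2 adjusted p of 0.0898.

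Klf4, which drives cell cycle exit in surface epithelium and is needed for acinar-to-ductal metaplasia in mouse pancreas, varied within both groups. It was at 114, 78.5, 92.9, 121 and 129 CPM with Egfr KO PSCs and at 73.2, 118, 87.2, 71.6 and 116 CPM with Egfr WT PSCs. High and low libraries occurred in both groups, and 4 of 5 Egfr KO PSC libraries lay above the median of the Egfr WT PSC libraries. The log2 fold change was 0.20 (SE 0.18, 95% confidence interval -0.19 to 0.59, edgeR adjusted p = 0.805), so a change of more than 1.51-fold upward lies outside the interval.

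Klf5, the factor of proliferating crypt and ductal cells that opposes Klf4 at shared sites, was the steadiest member. It was at 159, 159, 179, 143 and 163 CPM with Egfr KO PSCs and at 162, 164, 148, 154 and 181 CPM with Egfr WT PSCs. The ranges lay almost on top of each other, and the highest library was 1.26 times the lowest. Its log2 fold change was -0.0096 (SE 0.092, edgeR adjusted p = 0.987). The interval, -0.21 to 0.19, leaves out changes of more than 1.16-fold either way, the tightest bound among the 9 genes.

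Klf6 was at 1313, 1008, 1292, 1801 and 1832 CPM with Egfr KO PSCs and at 1506, 1453, 1160, 1307 and 1770 CPM with Egfr WT PSCs. The highest and the lowest library were both in the Egfr KO PSC group. The log2 fold change was 0.0099 (SE 0.18, 95% confidence interval -0.37 to 0.39, edgeR adjusted p = 0.994).

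Klf2, which sets quiescence in endothelium and T cells, had the widest spread. It was at 10.2, 6.74, 8.91, 12.3 and 11.4 CPM with Egfr KO PSCs and at 6.54, 21.9, 5.71, 6.32 and 15.9 CPM with Egfr WT PSCs. The Egfr WT PSC libraries held the 2 highest and the 3 lowest values, and all 5 Egfr KO PSC libraries lay between these. The SD was 21.9% of the mean with Egfr KO PSCs and 64.7% with Egfr WT PSCs. Its log2 fold change of -0.19 (SE 0.37, 95% confidence interval -1.0 to 0.61, edgeR adjusted p = 0.914) turned to 0.20 without Egfr WT PSC replicate 2 and to 0.22 in limma voom. The 2 highest libraries, Egfr WT PSC replicates 2 and 5, had summed endothelial markers of 43.8 and 48.6 CPM. Egfr KO PSC replicate 3 had the highest endothelial sum, 63.7 CPM, with Klf2 at 8.91 CPM. Egfr WT PSC replicates 2 and 5 also had the 2 highest mitochondrial shares of all libraries, 4.51% and 3.87%. Whether endothelial cells or the mitochondrial share bear on the Klf2 level was not tested.

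Klf9, a glucocorticoid-induced member that binds Sin3a, was at 63.7, 52.1, 91.9, 73.8 and 62.8 CPM with Egfr KO PSCs and at 48.2, 61.9, 41.6, 55.3 and 94.2 CPM with Egfr WT PSCs. The Egfr WT PSC libraries held both the lowest and the highest value. The log2 fold change was 0.19 (SE 0.22, 95% confidence interval -0.28 to 0.66, edgeR adjusted p = 0.847). It ranged from 0.073 without Egfr KO PSC replicate 3 and 0.0835 without Egfr WT PSC replicate 3 to 0.41 without Egfr WT PSC replicate 5 (edgeR adjusted p between 0.415 and 0.974 for all fits without 1 library).

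Among the genes of the glucocorticoid response, 4 of 8 tested were higher, 4 lower, and 0 passed the edgeR or DESeq2 test. The kinase gene Sgk1 had 433 ± 83.6 CPM with Egfr KO PSCs and 325 ± 63.8 CPM with Egfr WT PSCs (edgeR adjusted p = 0.554). Tsc22d3, a glucocorticoid-induced leucine zipper gene, had 139 ± 113 CPM with Egfr KO PSCs and 72.5 ± 28.1 CPM with Egfr WT PSCs. The co-chaperone gene Fkbp5 had 24.3 ± 14.8 CPM with Egfr KO PSCs and 14.1 ± 6.95 CPM with Egfr WT PSCs. Errfi1, an inhibitor of EGFR, had 144 ± 18.3 CPM with Egfr KO PSCs and 165 ± 23.2 CPM with Egfr WT PSCs (edgeR adjusted p of 0.651 or more for these 3). Egfr KO PSC replicate 5 was the highest library for Tsc22d3 (320.3 CPM) and Fkbp5 (49.4 CPM). Without it the log2 fold change of Tsc22d3 was 0.36, against 0.93 with all libraries, and that of Fkbp5 was 0.36, against 0.79.

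The remaining 3 members act mainly as repressors or in differentiation. Klf3 was at 41.4, 47.1, 51.3, 36.4 and 38.9 CPM with Egfr KO PSCs and at 40.7, 51.1, 49.1, 48.8 and 54.8 CPM with Egfr WT PSCs. Only 1 Egfr KO PSC library lay above the median of the Egfr WT PSC libraries, and the log2 fold change was -0.18 (SE 0.12, 95% confidence interval -0.45 to 0.08, edgeR adjusted p = 0.72). Klf13, which can bind Sin3a and is also known from T cells, was at 152, 139, 120, 134 and 153 CPM with Egfr KO PSCs and at 121, 120, 118, 143 and 166 CPM with Egfr WT PSCs. Its log2 fold change was 0.064 (SE 0.12, 95% confidence interval -0.20 to 0.32, edgeR adjusted p = 0.912). Klf7, known from neuronal differentiation, was at 65.6, 45.9, 62.6, 66.5 and 59.7 CPM with Egfr KO PSCs and at 57.4, 50.1, 59.0, 52.0 and 67.0 CPM with Egfr WT PSCs. Its log2 fold change was 0.073 (SE 0.12, 95% confidence interval -0.20 to 0.34, edgeR adjusted p = 0.902). The groups of all 3 genes overlapped, and Egfr WT PSC replicate 5 was the highest library for each of them, as it was for Klf5 and Klf9. The antisense genes that overlap exons of Klf3 and Klf7 (Gm20033, and Gm13748 with Gm26649) held 110 counts or fewer over all libraries together.

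**Figure D4:**
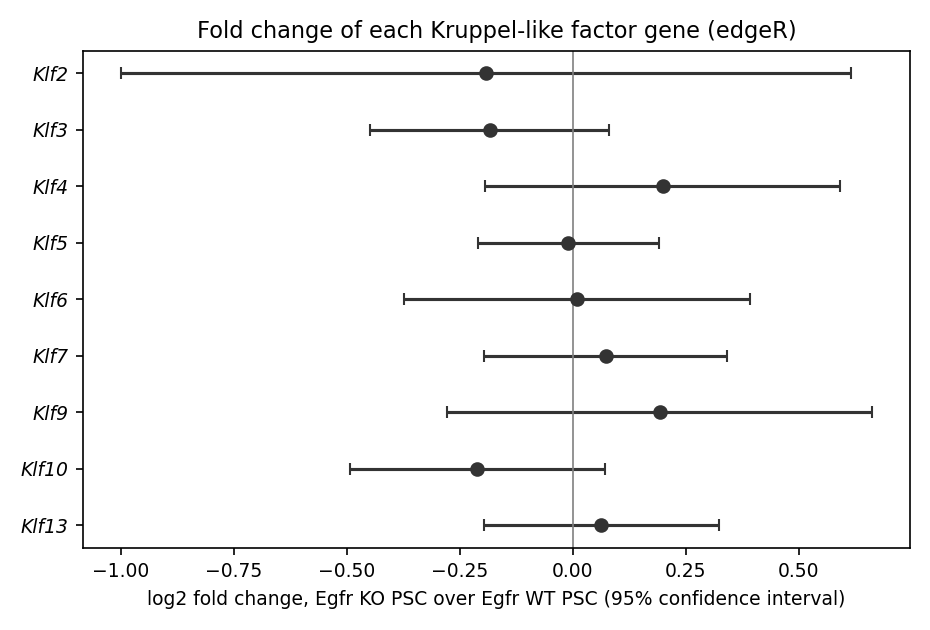
Log2 fold change of each member, Egfr KO PSC over Egfr WT PSC (x axis), with its 95% confidence interval from edgeR. Each interval includes 0, and that of Klf5 is the narrowest (-0.21 to 0.19) while that of Klf2 is the widest (-1.0 to 0.61).

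The other members of the family lay below Klf2 in mean TPM, except for Klf12 at 14.9 TPM. Of the 8 remaining KLF genes, Klf8, Klf11, Klf12 and Klf16 passed the filter on low counts, with 2 higher, 2 lower and 0 called by edgeR or DESeq2. Klf12, a CtBP-binding repressor, was at 11.9, 9.05, 22.4, 31.2 and 19.4 CPM with Egfr KO PSCs and at 11.3, 8.61, 8.10, 11.3 and 11.4 CPM with Egfr WT PSCs. In 4 of 5 Egfr KO PSC libraries Klf12 lay above all Egfr WT PSC libraries (log2 fold change 0.89, SE 0.29, edgeR adjusted p = 0.478). That log2 fold change was 0.39 with transcript length offsets, 0.34 on log2(TPM + 1) and 0.59 in limma voom. Klf16 had 10.2 ± 2.45 CPM with Egfr KO PSCs and 10.6 ± 1.01 CPM with Egfr WT PSCs. Klf1, the erythroid member, reached at most 0.344 CPM, Klf15 and Klf17 less than 0.10 CPM, and Klf14 had 0 counts.

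Of the related SP factors, which bind the same GC boxes, 6 of 9 were tested, 5 higher and 1 lower, and 0 passed. Sp2 had 44.1 ± 4.86 CPM with Egfr KO PSCs and 39.9 ± 2.85 CPM with Egfr WT PSCs. Sp1, the widely used activator of GC-box promoters, had 47.6 ± 3.28 CPM with Egfr KO PSCs and 49.4 ± 2.38 CPM with Egfr WT PSCs. Its relative Sp3 had 30.9 ± 3.996 CPM with Egfr KO PSCs and 30.7 ± 5.40 CPM with Egfr WT PSCs, and Sp4 had 15.5 ± 5.39 CPM with Egfr KO PSCs and 14.4 ± 2.19 CPM with Egfr WT PSCs (edgeR adjusted p of 0.745 or more for these 4).

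The partners of the family gave 0 calls by edgeR or DESeq2 as well. Among 10 co-repressor genes 8 were higher and 2 lower, with a median log2 fold change of 0.065 against 0.00041 over all genes. The deacetylase gene Hdac3 had 140 ± 17.3 CPM with Egfr KO PSCs and 170.1 ± 31.3 CPM with Egfr WT PSCs (edgeR adjusted p = 0.637). Sin3b, a scaffold for deacetylases, had 127 ± 28.3 CPM with Egfr KO PSCs and 107 ± 13.3 CPM with Egfr WT PSCs. Ctbp2 had 43.9 ± 4.09 CPM with Egfr KO PSCs and 40.3 ± 5.24 CPM with Egfr WT PSCs, and the LIM-domain co-factor gene Fhl3 had 6.14 ± 0.835 CPM with Egfr KO PSCs and 5.49 ± 1.41 CPM with Egfr WT PSCs (edgeR adjusted p of 0.718 or more for these 3). Among 11 genes of protein turnover and co-activation, 5 were higher and 6 lower. Wwp1, the ubiquitin ligase that degrades the KLF5 and KLF2 proteins, was at 14.9 to 19.9 CPM with Egfr KO PSCs and at 10.6 to 14.1 CPM with Egfr WT PSCs. The groups of Wwp1 did not overlap, as in 0.777% of all genes in that direction, and its edgeR adjusted p was 0.512 (log2 fold change 0.35, SE 0.13). The acetyltransferase gene Crebbp had 111 ± 2.18 CPM with Egfr KO PSCs and 118 ± 9.19 CPM with Egfr WT PSCs. The ubiquitin ligase genes Vhl and Smurf1 followed, Vhl with 26.8 ± 3.04 CPM with Egfr KO PSCs and 31.5 ± 14.7 CPM with Egfr WT PSCs and Smurf1 with 42.2 ± 6.46 CPM with Egfr KO PSCs and 39.3 ± 9.18 CPM with Egfr WT PSCs (edgeR adjusted p of 0.795 or more for these 3).

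The ERK5 and MEF2 input to Klf2 and Klf4 had 8 of 13 members higher and 5 lower, with a median log2 fold change of 0.039. Ccm2, of the complex that restrains this input, had 10.2 ± 2.56 CPM with Egfr KO PSCs and 13.4 ± 2.03 CPM with Egfr WT PSCs, and its partner Heg1 had 14.0 ± 5.33 CPM with Egfr KO PSCs and 19.4 ± 5.01 CPM with Egfr WT PSCs. Mef2a had 30.3 ± 4.95 CPM with Egfr KO PSCs and 27.1 ± 4.70 CPM with Egfr WT PSCs, and the kinase gene Map3k2 had 64.3 ± 9.28 CPM with Egfr KO PSCs and 59.2 ± 9.05 CPM with Egfr WT PSCs (edgeR adjusted p of 0.646 or more for these 4).

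Immediate early and dissociation genes, the class to which Klf2, Klf4, Klf6 and Klf10 are often assigned, were mostly lower: 19 of 24 against 49.9% of all genes, with a median log2 fold change of -0.25. Their edgeR calls were 0 and their DESeq2 calls 0. At an unadjusted p under 0.05, 6 were lower (4.6% of all genes in that direction) and 1 higher (3.55%). Socs3 had 76.8 ± 29.8 CPM with Egfr KO PSCs and 160.0 ± 67.0 CPM with Egfr WT PSCs. Ier2 had 55.3 ± 22.5 CPM with Egfr KO PSCs and 134 ± 65.4 CPM with Egfr WT PSCs, and Junb had 381 ± 135 CPM with Egfr KO PSCs and 696 ± 322 CPM with Egfr WT PSCs. Myc had 501 ± 96.5 CPM with Egfr KO PSCs and 378 ± 42.3 CPM with Egfr WT PSCs (edgeR adjusted p between 0.457 and 0.507 for these 4). Over the 10 libraries, Pearson r between a member and the mean log2 CPM of this list ranged from -0.44 for Klf13 to 0.41 for Klf10, with Spearman's rho from -0.37 to 0.42. None of these 9 relations passed, with unadjusted permutation p of 0.211 or more, an adjusted p of 0.94 for each r and of 0.947 for each rho. Without the 2 libraries farthest from the median of the list's mean log2 CPM, r ranged from -0.27 to 0.58.

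Genes reported as targets of KLF4 or KLF5 in epithelium had 13 of 19 members higher and 6 lower, where 49.9% of all genes were lower. Their median log2 fold change was 0.14, with 0 calls by edgeR or DESeq2. At an unadjusted edgeR p under 0.05, 2 were higher (3.55% of all genes in that direction) and 2 lower (4.6%). The 2 lower ones averaged under 5 CPM and are not named, so the 4 genes named next are all higher. Fgfbp1, a secreted growth factor carrier, had 14.3 ± 5.07 CPM with Egfr KO PSCs and 9.75 ± 1.27 CPM with Egfr WT PSCs. The keratin gene Krt7 had 2665 ± 331 CPM with Egfr KO PSCs and 2174 ± 219 CPM with Egfr WT PSCs, and Krt19 had 4339 ± 1106 CPM with Egfr KO PSCs and 3466 ± 216 CPM with Egfr WT PSCs. The cyclin gene Ccnd1 had 1087 ± 203 CPM with Egfr KO PSCs and 885 ± 140.3 CPM with Egfr WT PSCs (edgeR adjusted p between 0.554 and 0.647 for these 4). Krt7 and Krt19 are also among the 10 epithelial markers, of which 7 were higher and 3 lower. The target list does not separate activated from repressed genes, so its counts give no direction of KLF activity. Reported targets of the other members had 5 of 13 higher and 8 lower, with 0 edgeR calls. DESeq2 called 1 of them, the deiodinase gene Dio1, at 0.241 ± 0.204 CPM with Egfr KO PSCs and 1.13 ± 0.495 CPM with Egfr WT PSCs (DESeq2 adjusted p = 0.0376, edgeR adjusted p = 0.419). Without Egfr KO PSC replicate 5 the log2 fold change of Krt19 was 0.16, against 0.32 with all libraries. The survival gene Bcl2 had 30.1 ± 6.80 CPM with Egfr KO PSCs and 38.2 ± 5.56 CPM with Egfr WT PSCs, and the lectin gene Lgals3 had 1475 ± 643 CPM with Egfr KO PSCs and 1121 ± 261 CPM with Egfr WT PSCs. Eng, a TGF-beta co-receptor gene of endothelium, had 8.22 ± 4.69 CPM with Egfr KO PSCs and 11.0 ± 1.74 CPM with Egfr WT PSCs, and the inhibitory Smad7 had 52.7 ± 17.7 CPM with Egfr KO PSCs and 43.3 ± 12.5 CPM with Egfr WT PSCs (edgeR adjusted p of 0.62 or more for these 4). Single Egfr KO PSC libraries moved 3 of these log2 fold changes. Lgals3 was at 0.10 without replicate 5, against 0.40 with all libraries, Smad7 at 0.056 without replicate 4, against 0.28, and Eng at -0.83 without replicate 3, against -0.42.

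Among themselves the members formed 36 pairs, of which 4 had an unadjusted permutation p under 0.05 and 0 passed after Benjamini-Hochberg adjustment. Klf2 and Klf4 were high in the same libraries, Egfr WT PSC replicates 2 and 5 and Egfr KO PSC replicates 1, 4 and 5. Over the 10 libraries their Pearson r of log2 CPM was 0.82 (permutation p = 0.00487, adjusted p = 0.0877) and Spearman's rho was 0.82 (permutation p = 0.00571, adjusted p = 0.103). Without the 2 libraries farthest from the median of Klf2 r was 0.91. With each group's mean subtracted r was 0.87 (permutation p = 0.00144, adjusted p = 0.0518). Klf9 and Klf10 ran the opposite way, with r at -0.82 (permutation p = 0.00356, adjusted p = 0.0877), rho at -0.88 (permutation p = 0.00165, adjusted p = 0.0594) and r at -0.70 without the 2 libraries farthest from the median of Klf9. With group means subtracted, r of this pair was -0.81 (permutation p = 0.00497, adjusted p = 0.0895). Within the 5 Egfr KO PSC libraries r of this pair was -0.45, and within the 5 Egfr WT PSC libraries it was -0.93. Egfr WT PSC replicate 5 had the highest Klf9 and the lowest Klf10 of all libraries. Klf4 and Klf6 had r at 0.66 (permutation p = 0.0442, adjusted p = 0.306), rho at 0.68 (permutation p = 0.0344, adjusted p = 0.242) and r at 0.91 without the 2 libraries farthest from the median of Klf4. Klf4 and Klf10 had r at -0.64 (permutation p = 0.0495, adjusted p = 0.306) and rho at -0.62 (permutation p = 0.0606, adjusted p = 0.242). Without the 2 libraries farthest from the median of Klf4, r of this pair was weaker, at -0.36.

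**Figure D5:**
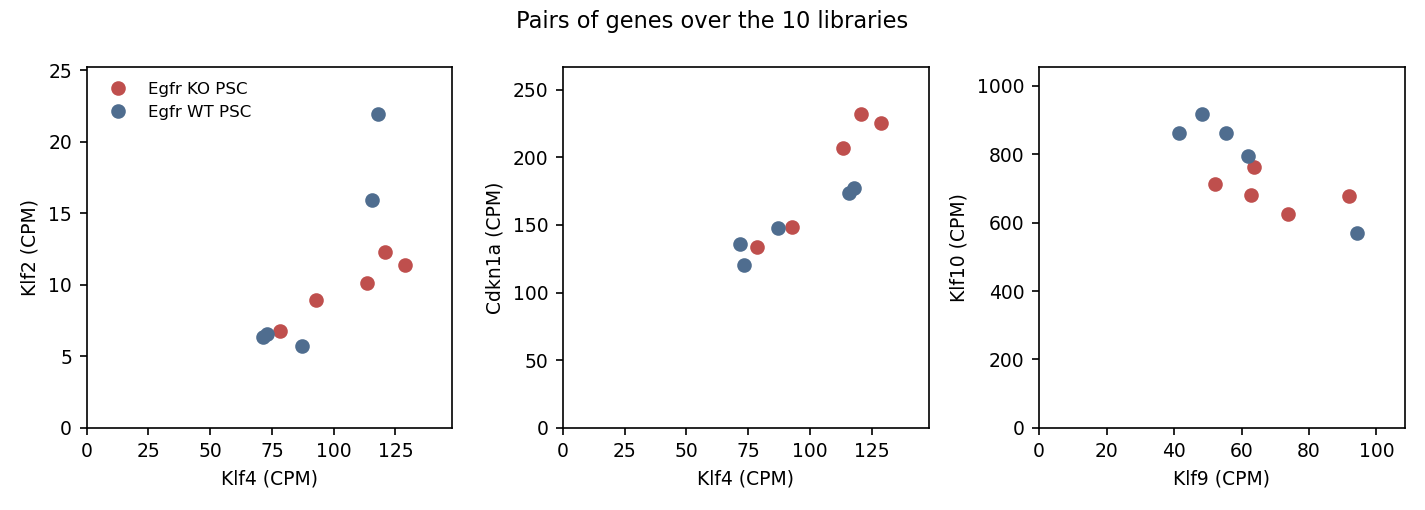
CPM in each of the 10 libraries (points; Egfr KO PSC red, Egfr WT PSC blue; axes from 0) for Klf2 against Klf4, Cdkn1a against Klf4, and Klf10 against Klf9. Klf2 and Cdkn1a are high where Klf4 is high, in libraries of both groups, and Klf10 is low where Klf9 is high.

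The genes whose pattern over the 10 libraries was most like a member's were searched among 9957 named genes that averaged 5 CPM or more, by Pearson r of log2 CPM. Over the 3 best of each member, rho lay between 0.75 and 0.98, and r without the 2 libraries farthest from the member's median between 0.63 and 0.97. These values describe the best of many matches, so no p is given, and all genes of a library share its depth and cell makeup. For Klf4 the closest gene was Cdkn1a, which encodes the cell cycle inhibitor p21 and is a known KLF4 target (r = 0.93, rho = 0.92, and r = 0.91 without the 2 libraries farthest from the median). Cdkn1a was at 207, 133, 148, 232 and 225 CPM with Egfr KO PSCs and at 120, 177, 148, 136 and 173 CPM with Egfr WT PSCs. Rabgap1 (r = 0.89) and Snhg5 (r = 0.87) followed for Klf4. For Klf2 the 3 closest were the mitochondrial protease gene Afg3l2 (r = 0.96), the phosphatase gene Phpt1 (r = 0.93) and Piezo1 (r = 0.93), the mechanosensitive channel gene that was also on the list of inputs to Klf2. Piezo1 lay between 26.2 and 37.9 CPM with Egfr KO PSCs and between 22.1 and 37.1 CPM with Egfr WT PSCs.

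Klf10 was matched by Arcn1, a coat protein gene of Golgi transport (r = 0.97), Ppp1r15b, a phosphatase subunit gene of the stress response (r = 0.96), and Tmem51 (r = 0.96). Klf9 was matched by Usmg5 (r = 0.98), Cpe (r = 0.97) and Kmt2b (r = 0.96), and Klf5 by Nsa2 (r = 0.93), Hccs (r = 0.90) and Adamts4 (r = 0.89). Klf6 was matched by Hsbp1 (r = 0.91), Erich1 (r = 0.90) and Cox16 (r = 0.89), and Klf7 by Enah (r = 0.89), Nek7 (r = 0.85) and Fzd5 (r = 0.82). Klf13 was matched by Fbn1 (r = 0.93), Stk39 (r = 0.91) and Sidt2 (r = 0.89), and Klf3 by Col16a1 (r = 0.89), Rhoj (r = 0.89) and Cluap1 (r = 0.89). Fbn1 and Col16a1 encode matrix proteins of fibroblasts, whose summed markers differed between libraries as given above, and their part in these matches was not tested.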

How the data were processed

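Epithelial cells sorted from tumours were sequenced in 10 libraries, 5 with Egfr KO PSCs and 5 with Egfr WT PSCs. Per the submitters' processing notes, the authors quantified transcripts with Salmon 1.9.0 against GRCm39, and which annotation release they used is not stated there. The deposited expected counts are estimated reads per transcript, not normalised, and the deposited TPM values are scaled for effective length. Transcripts were matched by ID without version to GENCODE M21 (92.7% of 147828, holding 98.07% to 98.69% of the counts), both units were summed per gene, and counts were rounded. The match gives names only, since the builds differ. Unmatched transcripts were left out.

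Groups were compared with edgeR 4.0.16 (R 4.3.3; TMM, minimum count 10, threshold 0.05), all libraries and no covariate, with DESeq2 1.42.0 and limma 3.58.1 voom as alternatives. SEs came from the F statistic. Log2 CPM used a prior count of 2, and log2(TPM + 1) a pseudocount of 1. Correlations used 100000 permutations with Benjamini-Hochberg adjustment over 36 pairs or 9 relations. The code was tested on simulated data. Of each list, up to 4 genes of lowest p with a mean of at least 5 CPM were named, and for each member the 3 genes of highest r; Dio1 was named after its values were seen. The members and lists were chosen with earlier results of these data known. Without molecular identifiers, duplicates cannot be told apart. RNA input set the number of PCR cycles, per the labels' protocols, and is not given per library.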

Additional observations from a re-analysis of the deposited data

Results flagged for a closer look

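In 90 groups of 5 libraries, those of the 9 members and of the genes named from the other lists, 5 held a library far from the other 4 of its group (a gap over 0.71 of the group's range). Chance flags about 1 in 20 groups, and none of the 9 Kruppel-like factor genes was among them. All 5 were single high Egfr KO PSC libraries. Wwp1 was at 19.9 CPM in replicate 5, with the others at 14.9 to 15.6 CPM. Eng was at 16.5 CPM in replicate 3, against 5.22 to 7.46 CPM in the others, in the library whose endothelial marker sum was highest (63.7 CPM). Smad7 was at 83.7 CPM in replicate 4, against 40.1 to 49.2 CPM. Lgals3 was at 2580 CPM in replicate 5, against 932 to 1398 CPM. Junb was at 616 CPM in replicate 1, against 274 to 353 CPM.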

How the results depend on the processing

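Each of the 9 members was refitted under 17 alternatives, and in the resulting 153 fits none passed the threshold; the lowest adjusted p was 0.29, for Klf10 without Egfr WT PSC replicate 5. Direction was kept in 142 fits. Klf2 turned to 0.2208 with limma voom, and its log2 fold change ranged from -0.36 to 0.20 when 1 library was left out. Klf5 ranged from -0.043 to 0.032 and Klf6 from -0.085 to 0.12 in the same fits. Those fits gave -0.25 to -0.13 for Klf3, 0.12 to 0.30 for Klf4, 0.033 to 0.16 for Klf7, 0.073 to 0.41 for Klf9, -0.31 to -0.16 for Klf10 and 0.020 to 0.15 for Klf13. Klf6 was also -0.0013 with transcript length offsets, -0.043 on log2(TPM + 1) and -0.0013 when the number in the file name entered the fit. Among other named genes, signs turned when 1 library was left out: Klf16 (-0.19 to 0.032), Sp4 (-0.049 to 0.29), Sp3 (-0.051 to 0.11) and Vhl (-0.39 to 0.084). Vhl was at -0.24 with all libraries and turned without Egfr WT PSC replicate 2. The cause was not tested. The number of genes called, 0 with edgeR (1426 at an unadjusted p under 0.05), was 127 with DESeq2, 3 with limma voom, 1 with no filter on low counts and 2 on log2(TPM + 1), and ranged from 0 to 4 when 1 library was left out (4 without Egfr KO PSC replicate 1, 2 without Egfr WT PSC replicate 5, 1 without Egfr KO PSC replicate 3), with no member among them. Correlated member pairs ranged from 0 to 1: without Egfr KO PSC replicate 4, Klf5 and Klf9 passed (r = 0.93, permutation adjusted p = 0.049). Counting protein-coding transcripts only, an alternative chosen after seeing the data, kept every direction. No paired analysis was possible because the labels give no replicate numbers: replicates are numbered in accession order, and the number in the file names, which several libraries of a group share, marks no pairs and entered only the fit named above (0 genes called).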
